A study of Homo sapiens with 8 samples.

Results

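Chidamide changed the transcripts of variant and linker histones in opposite directions in lymphoma cells. The linker histone gene H1FX rose more than 4.5-fold in both lines examined, the H2A.Z gene H2AFZ and the macroH2A gene H2AFY fell in both, and H2AFX, which encodes H2A.X, fell in Raji-4RH cells, where the effect differed from that in Raji cells by -1.38 on the log2 scale, provided that its values lie 12 rows below its label in the table. The linker histone gene H1F0 was barely detected, with 43 reads over the 8 libraries. The genes described here are 8 variant and linker histone genes, taken by symbol (H1F0, H1FX, H2AFX, H2AFY, H2AFY2, H2AFZ, H2AFV and H3F3B) from 18143 genes whose values could be placed. Of these 8 genes, 6 passed the filter on low values and were tested among 10710 genes, and H1F0 and H2AFY2 did not.

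RNA-seq was performed on 8 libraries from established B-cell lymphoma lines, with 2 libraries in each of 4 groups. Raji is a Burkitt lymphoma line that is sensitive to rituximab, an antibody against CD20. Raji-4RH was derived from Raji by repeated exposure to rituximab and is resistant to it, so sensitivity and resistance are each represented by 1 line. Cells at 2 to 3 passages were given DMSO, the vehicle, or 3 μM chidamide, an inhibitor of histone deacetylases, for 24 h, and were then collected by flow sorting. The gate of the sort and whether the replicates came from separate cultures are not given in the sources used here, and p-values therefore measure the spread between these libraries, which may be technical. The libraries held from 13991697 to 21193441 reads, the lowest in replicate 1 of Raji-4RH with chidamide. Values are FPKM, fragments scaled to the length of the gene and the depth of the library. The length is that of all annotated exons joined, from 1507 bases for H1FX to 17730 for H2AFY, and not that of the mRNA made. Levels and shares compared between genes therefore depend on the annotation. In replicate 1 of Raji with DMSO, H2AFY had 6203 reads and H3F3B 6913, at 17.7 and 57.1 FPKM. All 7 B cell markers examined were expressed, from 12.5 FPKM for MS4A1 in its lowest library to 1317 FPKM for CD74 in its highest. The 17 markers of other cell types that could be placed summed to 2.01 to 2.73 FPKM in the DMSO libraries and to 14.3 to 18.2 FPKM with chidamide, where the highest was CSF1R at 5.06 FPKM. The 6 markers that passed the filter on low values did so only through libraries with chidamide. Besides CSF1R, these were LYZ (up to 4.13 FPKM) and ITGAM (3.96) of myeloid cells and CD3E of T cells (4.10). The others were COL1A1 of fibroblasts (2.30) and PRDM1 of plasma cells (1.31). Of the 17, 8 were listed at 0 in at least 1 library (CD3D, CD3G and CD2 of T cells, COL1A2 and DCN of fibroblasts, and the epithelial EPCAM, KRT8 and KRT18). The part of the 17 markers in the results was not tested.

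In chromatin, DNA is wrapped around octamers of core histones and held together by linker histones of the H1 family. Canonical histones are made mostly during DNA replication from clustered genes, whose mRNAs end in a stem-loop and not in a poly(A) tail. Variant histones are encoded by genes that lie outside these clusters, are expressed through the cell cycle to differing degrees and are placed into chromatin by dedicated chaperones and remodelers. H1F0 encodes the linker histone H1.0, which accumulates in resting and differentiated cells and is a gene known to respond to deacetylase inhibitors, and H1FX encodes the linker histone H1X. H2AFX encodes H2A.X, which is phosphorylated at DNA breaks. H2AFZ and H2AFV encode the paralogs of H2A.Z, found at promoters and enhancers. H2AFY and H2AFY2 encode the macroH2A proteins, H2A variants with a large additional domain that are enriched on silent chromatin. H3F3B and its paralog H3F3A encode the same histone H3.3 protein.

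The promoters of H1FX, H2AFX and H2AFZ are shown first, because the lines and the drug changed these genes in different directions. Sequences are the 250 bases before the RefSeq start on GRCh38.p14, written 5′ to 3′ on the strand of the gene and credited to RefSeq, and 7 of the 8 genes had an entry. Capitals mark matches, on either strand, to the 6 motifs searched. These were TATAAA, the element bound by the TATA-binding protein, CCAAT, the element bound by NF-Y, and GGGCGG, the element bound by Sp1. The others were TTTGAA, found in the cell cycle homology region, TTTCCCGC, a site of E2F factors, and AAACACA, a forkhead motif. The H1FX window lies at chr3:129316287-129316536, minus strand, and is 68.4% GC. The H2AFX window lies at chr11:119095466-119095715, minus strand, and is 60.8% GC. The H2AFZ window lies at chr4:99950276-99950525, minus strand, and is 64.0% GC.
H1FX: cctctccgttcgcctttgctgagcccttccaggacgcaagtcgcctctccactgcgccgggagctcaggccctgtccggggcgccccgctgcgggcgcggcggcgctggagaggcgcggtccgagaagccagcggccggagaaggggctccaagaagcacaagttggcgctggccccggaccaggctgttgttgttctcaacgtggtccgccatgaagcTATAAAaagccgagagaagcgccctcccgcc
H2AFX: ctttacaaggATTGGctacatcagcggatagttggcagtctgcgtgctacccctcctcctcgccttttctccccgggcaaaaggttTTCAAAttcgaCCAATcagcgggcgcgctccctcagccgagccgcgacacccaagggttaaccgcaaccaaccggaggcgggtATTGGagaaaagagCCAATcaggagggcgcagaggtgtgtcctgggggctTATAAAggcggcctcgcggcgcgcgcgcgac
H2AFZ: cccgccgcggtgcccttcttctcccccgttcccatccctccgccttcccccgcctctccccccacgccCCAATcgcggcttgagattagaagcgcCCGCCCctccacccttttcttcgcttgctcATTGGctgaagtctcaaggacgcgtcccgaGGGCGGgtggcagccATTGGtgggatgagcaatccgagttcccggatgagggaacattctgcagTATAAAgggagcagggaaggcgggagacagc
The 3 windows each held TATAAA with its first base 31 bases before the start, and H3F3B held it at 29 bases before the start, while 11.1% of the 27305 promoter windows of the same length held this motif at any position. CCAAT was found at 4 places in H2AFX and at 3 in H2AFZ but at none in H1FX, and 33.0% of all windows held it. H2AFV and H3F3B, whose changes with chidamide were small, also held CCAAT. The H2AFY window held neither TATAAA nor CCAAT, and its gene changed as much as H2AFZ in Raji-4RH (log2 fold changes of -1.12 and -1.10). GGGCGG was found at 2 places in H2AFZ and at none in H1FX or H2AFX (42.3% of all windows). Of the 7 windows, H2AFX alone held TTTGAA, found on the opposite strand 164 bases before the start (13.6% of all windows). None of the 7 held TTTCCCGC (1.42% of all windows) or AAACACA (4.95%). These are matches of letters, and no binding was measured. Whether the motifs relate to the changes with chidamide was not tested.

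The genes are given by their GENCODE v29 coordinates on GRCh38. H1FX (ENSG00000184897) lies at chr3:129314771-129316277 and H2AFX (ENSG00000188486) at chr11:119093854-119095467, both on the minus strand. H2AFZ (ENSG00000164032) lies at chr4:99948086-99950388, H2AFV (ENSG00000105968) at chr7:44826791-44848083, H2AFY (ENSG00000113648) at chr5:135333900-135399914 and H3F3B (ENSG00000132475) at chr17:75776434-75785893, all on the minus strand. H1F0 (ENSG00000189060) lies at chr22:37805093-37807436 and H2AFY2 (ENSG00000099284) at chr10:70052796-70112280, both on the plus strand. Some exon sequence is shared with genes on the other strand, and whether the counting used strand is not given, so reads of such pairs cannot be told apart. The shared stretch was 345 bases or 22.9% of the exon length for H1FX with H1FX-AS1, 4968 bases or 28.0% for H2AFY with C5orf66, and 223 bases or 9.68% for H2AFZ with AC097460.1.

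The table's labels did not stand on the same rows as its values in most of its length, and each gene was read at a fixed distance below its label. For H1F0, H1FX, H2AFX, H2AFZ and H3F3B, that distance fitted the levels of the neighbouring labels best of the distances from 0 to 16 rows. The correlation across labels was 0.562 to 0.675, against at most 0.178 at the next best distance. H2AFV, H2AFY and H2AFY2 are read at 0 rows. Their labels were among those from which the expected levels were learned at 0 rows, so the check could not test their distance. H2AFX is the least certain, because its label stands only 3 labels below a change of distance from 11 to 12 rows. For H2AFX, the check used only labels below that change and could not test where the change lies. At 11 rows its values would be those of a row with 619 reads in all in place of 30702, from 0.973 FPKM to 6.56 FPKM over the libraries. Its log2 fold change in Raji-4RH, its interaction and its differences between the lines would then be above 0, and its value in Raji would be 0.61 and called. Each H2AFX result below, and each sum or share that includes H2AFX, holds only for a distance of 12 rows.

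Among the 6 tested genes, the linker histone gene H1FX had the largest fold change with chidamide in each line on the log2(FPKM + 1) scale. It was at 14.9 and 13.3 FPKM in Raji with DMSO and at 67.8 and 68.9 FPKM in Raji with chidamide. In Raji-4RH it was at 32.6 and 34.3 FPKM with DMSO and at 142 and 163 FPKM with chidamide. The groups did not overlap in either line, and Raji-4RH with DMSO stood between both Raji groups. The ratio of means was 4.84 in Raji (log2 fold change of 2.20 ± 0.08, SE, on the log2(FPKM + 1) scale, limma adjusted p = 3.7e-07) and 4.56 in Raji-4RH (2.15 ± 0.08, adjusted p = 1.3e-07). The effects in both lines did not differ beyond their error, the difference being -0.05 on the log2 scale with a 95% interval from -0.30 to 0.21. H1FX was also higher in Raji-4RH than in Raji, 2.37-fold with DMSO and 2.23-fold with chidamide (log2 differences of 1.19 and 1.14, limma adjusted p = 2.3e-06 and 2.2e-06). Across the 8 libraries, the gene with the most similar profile to H1FX was CDKN1A, which encodes the cell cycle inhibitor p21, with a root mean square difference of 0.22 on the log2 scale, followed by GABARAPL1 at 0.26 and FAM43A at 0.30. This likeness is a description over 8 libraries of 4 groups, among the 6614 tested genes that averaged 5 FPKM or more.

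**Figure D1:**
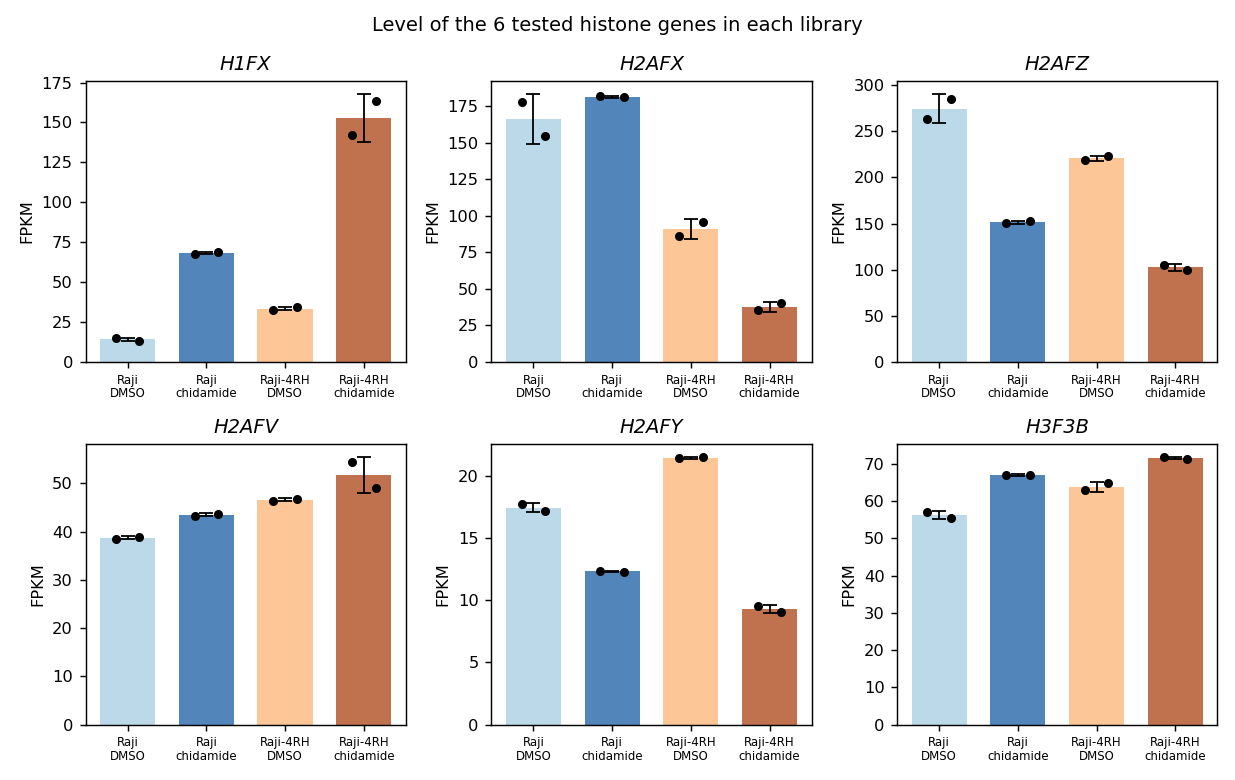
Level in FPKM (y axis, linear, from 0) of the 6 tested histone genes in the 4 groups. Bars are means, whiskers the SD of 2 libraries and points the libraries. H1FX rises from 14.1 to 68.4 FPKM in Raji and from 33.4 to 153 FPKM in Raji-4RH, and H2AFZ falls from 275 to 151 FPKM and from 221 to 102 FPKM.

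The related linker histone gene H1F0 did not reach 1 FPKM in any library. It had 15 and 17 reads in Raji with DMSO, 1 and 1 in Raji with chidamide, 1 and 1 in Raji-4RH with DMSO, and 2 and 5 in Raji-4RH with chidamide. The only libraries with more than 5 reads were those of Raji with DMSO, at 0.324 and 0.360 FPKM. In Raji, the read rate with chidamide was 0.0602 of that with DMSO (exact 95% interval from 0.00699 to 0.236, for counting error only), and Raji-4RH with DMSO stood at 0.0624 of Raji with DMSO (0.00725 to 0.245). In Raji-4RH the read rate with chidamide was 4.31 times that with DMSO, with an interval from 0.821 to 42.6, so a change in this line was not detectable at this depth. H1F0 made up 2.13% and 2.63% of the summed FPKM of H1F0 and H1FX in Raji with DMSO and at most 0.0709% in the other libraries. When genes were tested without the filter on low values, H1F0 was lower with chidamide in Raji (log2 fold change of -0.39, limma adjusted p = 1.3e-04) and higher in Raji-4RH (0.09, adjusted p = 0.028), a difference that rests on 2 against 7 reads.

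**Figure D2:**
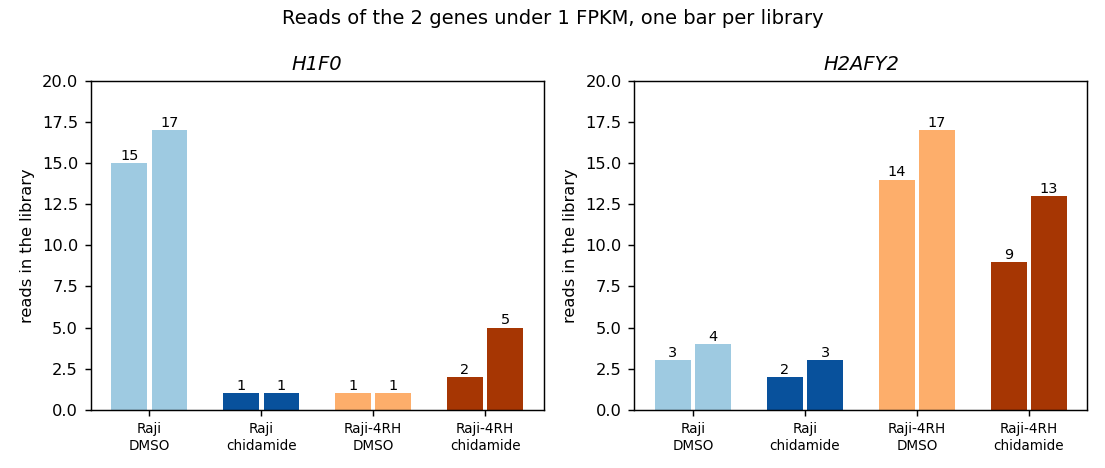
Reads (y axis, from 0) of H1F0 and H2AFY2 in each library, with 1 bar per library and replicates 1 and 2 side by side. H1F0 reaches 15 and 17 reads in Raji with DMSO and no more than 5 elsewhere, and H2AFY2 has 9 to 17 reads in Raji-4RH and 2 to 4 in Raji.

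H2AFX responded differently in the 2 lines. It was at 178 and 154 FPKM in Raji with DMSO and at 182 and 181 FPKM in Raji with chidamide. In Raji-4RH it was at 86.3 and 95.9 FPKM with DMSO and at 35.2 and 40.1 FPKM with chidamide. All Raji libraries stood above all Raji-4RH libraries, and the lowest were those of Raji-4RH with chidamide. The fall in Raji-4RH was to 0.413 of the DMSO mean (log2 fold change of -1.25 ± 0.09, SE, limma adjusted p = 3.8e-06). In Raji the difference did not pass the test (0.13, 95% interval from -0.08 to 0.34, adjusted p = 0.25). The effects differed between the lines by -1.38 ± 0.13 (SE) on the log2 scale, with a limma adjusted p of 8.3e-05 for the interaction. The log2 difference of Raji-4RH from Raji was -0.86 with DMSO and -2.24 with chidamide (limma adjusted p = 3.9e-05 and 9.3e-08). With the distance of the labels above it, the log2 fold change in Raji-4RH would be 1.21 and the interaction 0.60. The genes with the most similar profiles were FASN, a fatty acid synthase (root mean square difference of 0.12), CDCA3, a gene of mitotic entry (0.22), and ZWILCH, a kinetochore gene (0.23).

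The H2A.Z genes moved apart from each other. H2AFZ, the more abundant one, was at 264 and 285 FPKM in Raji with DMSO and at 150.4 and 153 FPKM with chidamide. In Raji-4RH it was at 219 and 223 FPKM with DMSO and at 105 and 100.0 FPKM with chidamide. Both lines fell without overlap, to 0.552 of the DMSO mean in Raji (log2 fold change of -0.85 ± 0.06, SE, limma adjusted p = 8.0e-06) and to 0.464 in Raji-4RH (-1.10 ± 0.06, adjusted p = 7.1e-07). The interaction was -0.25 ± 0.08 (SE, limma adjusted p = 0.036), and it turned to 0.04 after quantile normalization. This call was also lost without replicate 1 of Raji with DMSO (-0.19), without either library of Raji with chidamide (-0.26 and -0.24) and without either library of Raji-4RH with DMSO (-0.26 and -0.24). H2AFZ was also lower in Raji-4RH than in Raji, with log2 differences of -0.31 with DMSO and -0.56 with chidamide (limma adjusted p = 0.0013 and 2.9e-05). Its closest profiles were those of KIF20A, a mitotic kinesin (0.07), BANF1, a DNA-binding protein of the nuclear envelope (0.08), and SET, a histone chaperone (0.08).

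H2AFV, the paralog of H2AFZ, had small differences whose size depended on the scaling. It was at 38.5 and 38.9 FPKM in Raji with DMSO, at 43.3 and 43.8 FPKM in Raji with chidamide, at 46.4 and 46.8 FPKM in Raji-4RH with DMSO and at 54.4 and 49.1 FPKM in Raji-4RH with chidamide. Its log2 fold change with chidamide was 0.17 ± 0.06 (SE) in Raji (limma adjusted p = 0.037) and 0.14 ± 0.06 in Raji-4RH (adjusted p = 0.0495). The Raji-4RH call was lost in 13 of 19 alternatives, among them leaving out any library other than replicate 2 of Raji-4RH with chidamide, and the value was 0.07 without replicate 1 of that group. The Raji call was lost in 8 of 19, among them leaving out any library other than those of Raji-4RH with chidamide. After quantile normalization the values were larger, at 0.28 in Raji and 0.44 in Raji-4RH, and both were called (limma adjusted p = 0.0042 and 2.2e-04). The difference of Raji-4RH from Raji with chidamide was then 0.45. H2AFV was higher in Raji-4RH than in Raji by 0.26 with DMSO and by 0.24 with chidamide before that normalization (adjusted p = 0.0033 and 0.0045). The share of H2AFZ in the summed FPKM of H2AFZ and H2AFV was 87.3% and 88.0% in Raji with DMSO and 77.7% in both Raji libraries with chidamide. In Raji-4RH it was 82.5% and 82.6% with DMSO and 65.8% and 67.1% with chidamide. The share was lower with chidamide in each line without overlap, and an exact permutation test of 2 against 2 libraries cannot go below a two-sided p of 0.333. The coding sequences of the paralogs share 311 of 387 bases (80.4%), with no identical run over 23 bases in any of their transcripts. H2AFZ has 6 named pseudogenes with identical runs of up to 91 bases and H2AFV has 1 with a run of 153 bases, so reads may have been split between the genes and these copies.

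H2AFY, the main macroH2A gene of these cells, fell in both lines. It was at 17.7 and 17.2 FPKM in Raji with DMSO and at 12.3 FPKM in both Raji libraries with chidamide. In Raji-4RH it was at 21.4 and 21.5 FPKM with DMSO and at 9.53 and 9.07 FPKM with chidamide. Raji-4RH thus held the highest libraries with DMSO and the lowest with chidamide, and no 2 groups overlapped. The mean fell to 0.706 of that with DMSO in Raji (log2 fold change of -0.47 ± 0.05, SE, limma adjusted p = 8.9e-05) and to 0.433 in Raji-4RH (-1.12 ± 0.05, adjusted p = 3.1e-07). The interaction was -0.65 ± 0.07 (adjusted p = 1.9e-04), with values from -0.71 to -0.62 over 18 alternatives. The log2 difference of Raji-4RH from Raji was 0.28 with DMSO and -0.37 with chidamide (limma adjusted p = 9.7e-04 and 1.6e-04). Its closest profiles were those of ABCF2 (0.04), TAF5, a subunit of the general transcription factor TFIID (0.04), and FAIM, an inhibitor of apoptosis (0.05).

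H2AFY2 was the other gene under the filter. It had 3 and 4 reads in Raji with DMSO, 2 and 3 in Raji with chidamide, 14 and 17 in Raji-4RH with DMSO, and 9 and 13 in Raji-4RH with chidamide. Every Raji-4RH library stood above every Raji library, with a read rate 4.42 times as high with DMSO (exact 95% interval from 1.91 to 11.9, counting error only) and 5.63 times with chidamide (2.08 to 19.0). The ratio of chidamide to DMSO was 0.688 in Raji (0.172 to 2.52) and 0.875 in Raji-4RH (0.483 to 1.56), and a change was not detectable at this depth. H2AFY made up 99.4% to 99.6% of the summed FPKM of the macroH2A genes in Raji and 96.2% to 98.3% in Raji-4RH.

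H3F3B was higher with chidamide in both lines, by an amount that depended on the scaling. It was at 57.1 and 55.6 FPKM in Raji with DMSO, at 66.9 and 67.1 FPKM in Raji with chidamide, at 62.9 and 64.9 FPKM in Raji-4RH with DMSO and at 71.8 and 71.4 FPKM in Raji-4RH with chidamide. The log2 fold change was 0.25 ± 0.05 (SE) in Raji (limma adjusted p = 0.0022) and 0.16 ± 0.05 in Raji-4RH (adjusted p = 0.014), and the difference between the lines was -0.09 with a 95% interval from -0.24 to 0.07. The Raji-4RH call was lost when samples were centred on their medians (0.08) and without replicate 1 of Raji-4RH with DMSO (0.14). After quantile normalization the value was 0.42 in Raji-4RH and 0.38 in Raji, and both were called (limma adjusted p = 6.0e-05 and 2.4e-04). With DMSO, H3F3B was higher in Raji-4RH than in Raji by 0.18 (adjusted p = 0.0085), a call that was lost without replicate 2 of Raji-4RH with DMSO (0.16), and with chidamide the difference of 0.09 did not pass the test (adjusted p = 0.10) but was 0.31 and called after quantile normalization (limma adjusted p = 2.9e-04). H3F3A, its paralog, had log2 fold changes of 0.17 in Raji and 0.17 in Raji-4RH (limma adjusted p = 0.049 and 0.037). H3F3B made up 45.0% to 48.4% of the summed FPKM of H3F3A and H3F3B in Raji and 52.3% to 53.8% in Raji-4RH, with no common shift under chidamide. H3F3A has a pseudogene with an identical run of 411 bases, as long as its coding sequence, and its values are uncertain for that reason.

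**Figure D3:**
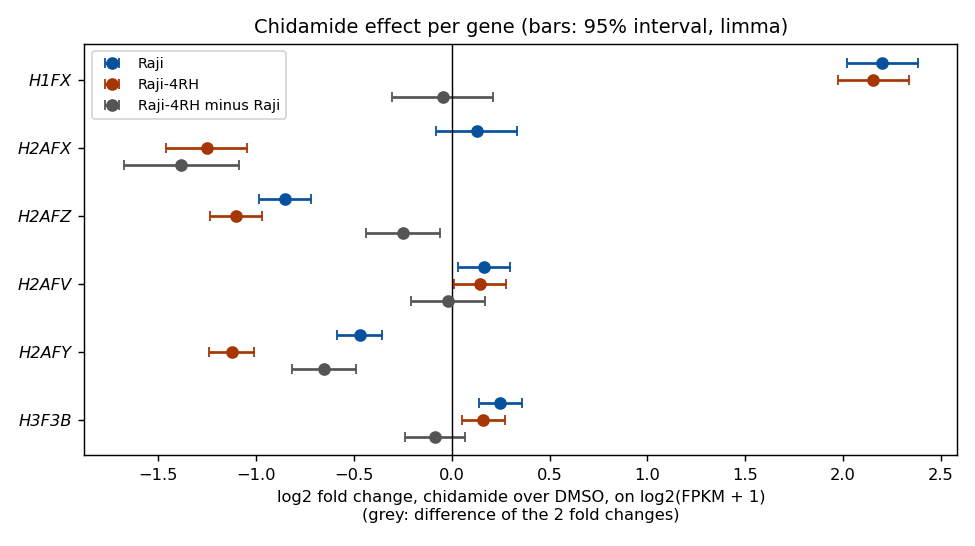
Log2 fold change of chidamide over DMSO on the log2(FPKM + 1) scale (x axis) for the 6 tested genes, in Raji (blue), in Raji-4RH (brown) and as the difference of the 2 (grey). Points are limma estimates and bars 95% intervals. H1FX lies near 2.2 in both lines with a difference that spans 0, while the differences of H2AFX, H2AFZ and H2AFY lie below 0, that of H2AFZ turning to 0.04 after quantile normalization.

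Counted together, all 6 tested genes were called in Raji-4RH, 3 higher and 3 lower, where 74.9% of all tested genes were called (43.3% higher and 31.6% lower). In Raji, 5 of 6 were called, 3 higher and 2 lower, against 60.0% of all tested genes (31.5% higher and 28.5% lower). The interaction was called for 3 of 6, each with a lower value in Raji-4RH, against 48.8% of all tested genes (27.2% higher and 21.7% lower). Between the lines, 6 of 6 were called with DMSO, 4 higher and 2 lower in Raji-4RH, against 73.6% of all tested genes (41.2% higher and 32.4% lower). With chidamide, 5 of 6 were called, 2 higher and 3 lower, against 79.3% (44.3% higher and 35.0% lower). With a background this high, these counts do not set the histone genes apart. The median log2 fold change over all tested genes was 0.09 in Raji-4RH and 0.02 in Raji. In Raji-4RH, 4642 genes were called higher and 3380 lower, and after quantile normalization, which moved the median to -0.02, 3718 were higher and 4057 lower. The same scaling gave 2642 higher and 3432 lower in Raji in place of 3370 and 3051, and in the interaction and between the lines it left slightly more genes lower than higher. The comparisons of lines and of treatments share groups and are not independent of each other.

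The order of the levels changed with line and treatment. In Raji with DMSO it ran from H2AFZ (mean of 275 FPKM) through H2AFX (166), H3F3B (56.3), H2AFV (38.7), H2AFY (17.5) and H1FX (14.1) to H1F0 (0.342) and H2AFY2 (0.0885). In Raji-4RH with chidamide, H1FX led at 153 FPKM, followed by H2AFZ (102), H3F3B (71.6), H2AFV (51.7), H2AFX (37.7) and H2AFY (9.30). Neighbours in each of these orders did not overlap between libraries. The orders, and the sums and shares that follow, depend on the exon lengths used for FPKM. The summed FPKM of the 5 H2A variant genes was 498 and 496 in Raji with DMSO, 388 and 390 in Raji with chidamide, 374 and 387 in Raji-4RH with DMSO and 204 and 199 in Raji-4RH with chidamide. H2AFX took 35.8% and 31.1% of this sum in Raji with DMSO and 46.9% and 46.4% with chidamide. In Raji-4RH its share was 23.1% and 24.8% with DMSO and 17.3% and 20.2% with chidamide, the opposite direction from Raji. In Raji the share rose while the sum fell, and the level of H2AFX itself did not pass the test there (log2 fold change of 0.13, limma adjusted p = 0.25). H2AFV took 7.72% and 7.85% of the sum in Raji with DMSO and 11.16% and 11.23% with chidamide. In Raji-4RH it took 12.4% and 12.1% with DMSO and 26.6% and 24.7% with chidamide. The level of H2AFV itself changed little with chidamide, 1.125-fold in Raji and 1.11-fold in Raji-4RH, while the sum fell. With H2AFX read 11 rows below its label, the sum would be 321 and 343 in Raji with DMSO and 173 and 165 in Raji-4RH with chidamide. The H2AFV shares of these libraries would be 11.98%, 11.3%, 31.5% and 29.7%, in that order. H2AFX would take at most 3.97% of the sum in any library.

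**Figure D4:**
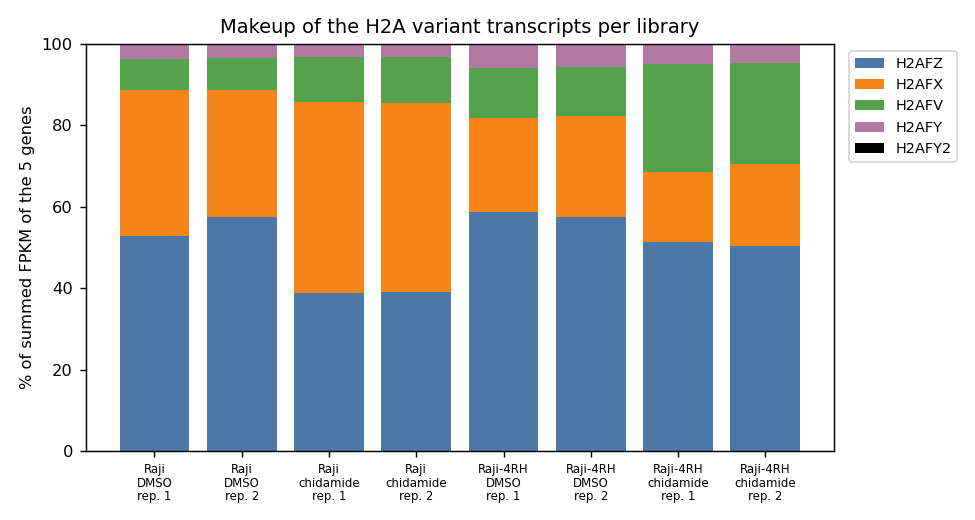
Share (y axis, percent) of each of 5 H2A variant genes in their summed FPKM, for each of the 8 libraries. The H2AFX share (orange) is highest in Raji with chidamide, at 46.9% and 46.4%, and lowest in Raji-4RH with chidamide, at 17.3% and 20.2%, with H2AFX read 12 rows below its label; H2AFY2 is below 0.2% throughout.

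Proliferation genes moved with the genes that fell. All 17 proliferation markers were called lower with chidamide in Raji-4RH (median log2 fold change of -1.96) and 16 of 17 in Raji (median -0.96), where 31.6% and 28.5% of all tested genes were called lower. BUB1, the exception, did not fall in Raji (0.12, limma adjusted p = 0.16). The interaction was called with a lower value in Raji-4RH for all 17, against 21.7% of all tested genes. MCM4, a subunit of the replicative helicase, fell from 76.5 ± 0.354 to 9.06 ± 0.622 FPKM (SD, n = 2) in Raji-4RH and from 111 ± 1.46 to 43.0 ± 0.515 FPKM in Raji. The markers also included MCM5 (-2.76) and the thymidylate synthase gene TYMS (-2.61) in Raji-4RH, and MCM7 (-1.19) and the cyclin gene CCNA2 (-1.19) in Raji. Their summed level was 1289 to 1295 FPKM in Raji with DMSO, 716 to 719 FPKM with chidamide, 1524 to 1529 FPKM in Raji-4RH with DMSO and 343 to 354 FPKM with chidamide. The falls of H2AFZ, H2AFY and, at a distance of 12 rows, H2AFX stood beside these values, and the part of proliferation in them was not tested. In bulk RNA, fewer cells of a kind and less RNA per cell cannot be told apart.

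Of the chaperones and remodelers that handle variant histones, more were called lower than higher with chidamide. Of 33 tested, 23 were called lower, 4 higher and 6 not called in Raji-4RH (median log2 fold change of -0.66), against 74.9% of all tested genes called and 31.6% lower. In Raji the counts were 25, 2 and 6 (median -0.34), against 60.0% called and 28.5% lower. APLF, among the genes called higher in both lines, passed the filter only through libraries with chidamide, so the filter favoured its calls. CHAF1A, the large subunit of the replication-coupled chaperone CAF-1, fell from 37.0 ± 0.586 to 7.98 ± 0.255 FPKM (SD, n = 2) in Raji-4RH, a log2 fold change of -2.08. MCM2, which is also a proliferation marker and binds histones at the fork, changed by -1.96 in Raji-4RH and by -1.02 in Raji. MIS18A, needed for the loading of the centromeric H3 variant CENP-A, changed by -1.62 in Raji-4RH, and OIP5, of the same complex, by -0.72 in Raji. YEATS4, a subunit shared by the SRCAP and TIP60 complexes that deposit H2A.Z, changed by -0.78 in Raji. ANP32E, the chaperone that removes H2A.Z, was at 66.7 FPKM with DMSO and 33.9 FPKM with chidamide in Raji-4RH, and at 85.9 and 59.2 FPKM in Raji; it was named after its values were seen.

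Among other variant histone genes, 7 of 11 could be placed and 2, H3F3A and CENPA, were tested. CENPA, which encodes the centromeric H3 variant, was at 18.6 and 20.2 FPKM in Raji with DMSO, at 16.03 and 17.3 FPKM with chidamide, at 19.4 and 18.8 FPKM in Raji-4RH with DMSO and at 6.78 and 8.41 FPKM with chidamide. It fell in Raji-4RH (log2 fold change of -1.23 ± 0.09, SE, limma adjusted p = 4.4e-06), and its value of -0.21 in Raji did not pass the test (adjusted p = 0.084). Of 32 clustered histone genes placed, 20 passed the filter. Among these, HIST1H1B, HIST1H1E, HIST1H2AG, HIST2H2BE and HIST3H2BB passed only through libraries with chidamide. The filter thus favoured a rise in at least 1 line, and no count of calls is given for this list. HIST1H1B was not higher with chidamide in Raji, at 0.369 FPKM with DMSO and 0.213 FPKM with chidamide. HIST1H2BL went from 0.412 to 0.129 FPKM in Raji-4RH and from 1.49 to 2.62 FPKM in Raji. HIST1H1C, a clustered linker histone gene, rose from 3.62 to 17.8 FPKM in Raji-4RH and from 2.70 to 4.59 FPKM in Raji. Named genes had to average 5 FPKM over the libraries, which HIST1H1C did only through Raji-4RH with chidamide. Its naming thus depended on its rise in that group. HIST3H2A rose from 8.45 to 30.2 FPKM in Raji-4RH and from 7.34 to 12.4 FPKM in Raji. HIST1H2BD rose from 2.90 to 9.99 FPKM in Raji-4RH and from 5.49 to 9.97 FPKM in Raji. Levels of these near-identical genes are uncertain because reads may be split between copies, and most of them give mRNAs without a poly(A) tail.

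The genes that process the ends of such histone mRNAs were lower, with 12 of 13 called lower and 1 not called in Raji-4RH (median -0.59) and 9 lower, 1 higher and 3 not called in Raji (median -0.33), where 31.6% and 28.5% of all tested genes were called lower. SLBP, which binds the stem-loop, fell from 95.3 ± 1.10 to 32.5 ± 0.460 FPKM (SD, n = 2) in Raji-4RH and from 72.2 ± 0.140 to 49.5 ± 2.24 FPKM in Raji. LSM10, of the U7 particle, changed by -1.02 and CSTF2 by -0.83 in Raji-4RH, and SYMPK and CPSF2, of the cleavage complex, by -0.53 and -0.46 in Raji. Of the genes that phosphorylate H2A.X or read that mark, 14 were tested, with 8 lower, 2 higher and 4 not called in Raji-4RH (median -0.22) and 7, 2 and 5 in Raji (median -0.17). Calls in either direction, 10 of 14 and 9 of 14, were near the 74.9% and 60.0% of all tested genes, and the share called lower stood above the 31.6% and 28.5% of all. BRCA1, a DNA repair gene, fell from 17.8 to 3.43 FPKM in Raji-4RH and from 8.68 to 4.49 FPKM in Raji. TOPBP1, an activator of the ATR kinase, changed by -1.45 and -0.64, and BAZ1B, which encodes a tyrosine kinase of H2A.X, by -1.17 and -0.62 in the same order. ATM, the main kinase of H2A.X at breaks, stood at 6.56 and 8.89 FPKM with DMSO and chidamide in Raji-4RH and at 5.72 and 7.88 FPKM in Raji, and was likewise named after its values were seen.

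**Figure D5:**
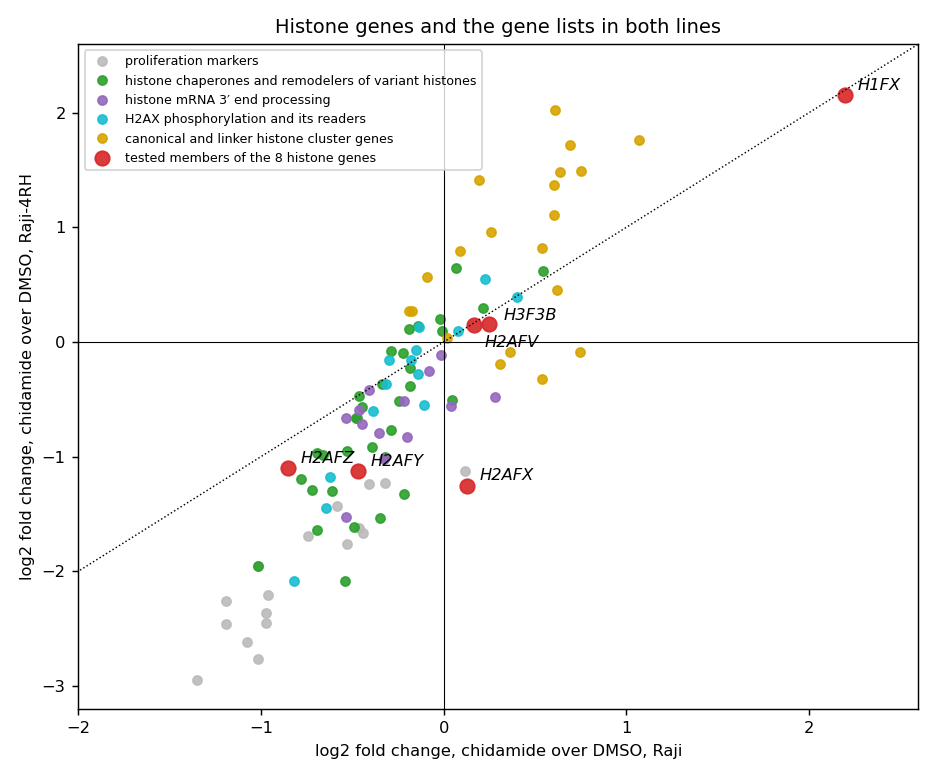
Log2 fold change of chidamide over DMSO in Raji (x axis) and in Raji-4RH (y axis) for the tested genes of 5 lists and the 6 tested histone genes (red, named). The dotted line marks equal changes; H1FX lies near it at 2.20 and 2.15, and H2AFX lies below it at 0.13 and -1.25, with most proliferation markers (grey; MCM2, also a chaperone, is green) at the lower left; 5 of the clustered histone genes passed the filter only through libraries with chidamide.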

How the data were processed

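RNA-seq of 8 libraries was examined. The deposited file is a table whose rows are genes and whose columns hold the FPKM of each library. Per the labels' processing notes, HISAT2 2.0.5, SAMtools 1.7, HTSeq 0.9.1 and DESeq2 1.22.2 were used with hg38/GRCh38; their roles and the annotation are not given in the sources used here. FPKM multiplied by gene length and library total gave whole reads (within 0.05) for 100% of non-zero values, so depth was known.

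The last 662 of 63967 rows repeat the first 662, and most labels stand above their values. The distance between them was taken from a table of fixed distances per block of rows, FPKM was rescaled to the length of the label's gene, and 18143 labels were placed, holding 90.7% to 93.2% of each library's reads. The lengths of the members equal those of GENCODE v29. Groups came from the sample labels.

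The 4 groups were fitted together in limma 3.58.1 (R 4.3.3; eBayes with an intensity trend) after FPKM was increased by 1 and taken to log2, for genes that reached 1 FPKM in 2 or more libraries. Tests were two-sided, with Benjamini-Hochberg adjustment over 10710 genes and a threshold of 0.05. This scale understates changes of low genes. Genes under the filter were given as ratios of read rates with exact conditional 95% intervals, which cover counting error only. Alternatives were another pseudocount, other filters, other scaling, no trend, fewer libraries, voom on the reads, a replicate block, the rows as deposited and leaving out each library. Voom called 8113 genes in Raji-4RH and 6662 in Raji.

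The members and lists were chosen with earlier results of these data known. Named were all members, H3F3A and CENPA, up to 3 called genes per list and chidamide comparison with the largest change, among those that averaged 5 FPKM or more and whose groups did not overlap, and the 3 closest profiles per member (not all are printed). The list of H2A.X genes holds 2 older symbols of genes it also gives by current symbol. Proteins were not compared here; coding sequences were, in their place.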

Additional observations from a re-analysis of the deposited data

Results flagged for a closer look

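By the test of the interaction in limma, the response to chidamide differed between the lines for 3 of the 6 tested histone genes. It also differed for CENPA, 1 of 2 other variant histone genes tested. Of all tested genes, 48.8% were called, so these counts do not set the histone genes apart. The effect in Raji-4RH minus that in Raji was -1.38 on the log2 scale for H2AFX, -1.03 for CENPA, -0.65 for H2AFY and -0.25 for H2AFZ. The value of H2AFX holds only where its values lie 12 rows below its label, and that of H2AFZ was 0.04 after quantile normalization.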

How the results depend on the processing

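Of 566 values for single histone genes under an alternative, 515 kept their direction and side of the threshold. Another 31 kept the direction but were no longer called, 4 became called and 16 changed sign. Many of the 566 could not change direction. The other distance for H2AFX moved H2AFX alone, and leaving out a library outside a comparison kept its log2 fold change. H2AFV and H2AFY have the same rows as deposited. These counts, and those of alternatives given above, therefore overstate how stable the values are. Without each library in turn, the log2 fold change of H1FX ranged from 2.05 to 2.25 in Raji-4RH and from 2.12 to 2.28 in Raji. That of H2AFZ ranged from -1.135 to -1.069 and from -0.91 to -0.80, and that of H2AFY from -1.16 to -1.09 and from -0.49 to -0.45. With rows read as deposited, H1FX and H2AFZ did not pass the filter. Of the 4 histone genes then tested, 1 was called in Raji-4RH, 3 in Raji and 1 for the interaction. Of all 10726 genes tested that way, 8063, 6438 and 5241 were called in that order. H2AFV, whose label and values share a row, lost its Raji-4RH call there at an adjusted p of 0.0502 in limma. H2AFX so read gave 0.16 in Raji-4RH, -0.16 in Raji, 0.31 for the interaction, 0.45 between the lines with DMSO and 0.77 with chidamide. With the distance of the labels above it (chosen after seeing the data), H2AFX gave 1.21, 0.61, 0.60, 0.24 and 0.85 in that order. Quantile normalization turned the interaction of H1FX to 0.13, of H2AFZ to 0.038, of H2AFV to 0.16 and of H3F3B to 0.043, and its cause was not tested. Leaving out single libraries gave an interaction from -0.15 to 0.053 for H1FX and from -0.094 to 0.052 for H2AFV, whose intervals span 0. After quantile normalization H2AFX in Raji (0.26) and H3F3B between the lines with chidamide (0.31) were called.

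Same-numbered replicates did not pair: the correlations of their deviations were 0.17 in Raji-4RH, -0.09 in Raji, -0.16 between the lines with DMSO and 0.01 with chidamide. With a replicate block, 7886 genes were called in Raji-4RH, 6183 in Raji, 4915 for the interaction, 7748 between the lines with DMSO and 8397 with chidamide, and the calls of H2AFV in each line and of the H2AFZ interaction were not made. Crossed numbers, tried after seeing the data for the lines with DMSO, gave 8542 genes against 7992 with the same numbers. Fitting only the libraries compared was not run for the interaction, which uses all of them. At 43 reads for H1F0 and 65 for H2AFY2 in all, depth limits what can be said of these genes.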

Other observations

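The profiles closest to H2AFV over the 8 libraries were those of STX4, a membrane fusion protein (root mean square difference of 0.03 on the log2 scale), ZNF212 (0.04) and VHL, the ubiquitin ligase subunit lost in von Hippel-Lindau disease (0.05). Those closest to H3F3B were ZNF317 (0.05), FAM173A (0.05) and FKBP1A, the binding protein of the drug FK506 (0.05). These are descriptions over 8 libraries of 4 groups.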
